A study of Mus musculus with 2 samples.

Results

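The regions described here are chromatin boundaries that lay deep inside very long protein-coding genes in mature olfactory sensory neurons of the mouse. A boundary is a place where contacts between the DNA on its left and the DNA on its right are depleted in a Hi-C map. Members were all 5 kb boundary intervals that lay wholly inside a protein-coding gene record of 500 kb or more (GENCODE mouse release 21, GRCm38) and over 20 kb from both of its ends. The rule used positions only, and it took 400 of the 8058 boundaries of the map, in 199 of 230 such gene records.

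The study measured in situ Hi-C, in which crosslinked chromatin is cut, neighbouring fragments are ligated in the intact nucleus and the joined DNA is sequenced. It held 1 group of 2 biological replicates, made from 3000000 and 1500000 cells. The cells came from the olfactory epithelium of adult OMP-GFP mice of strain 129P2/OlaHsd and mixed sex, where GFP marks cells that use the olfactory marker protein gene, and were taken by FACS as the gate named P3, with no treatment. Chromatin was fixed for 10 min in 1% formaldehyde and cut with DpnII, and both replicates were pooled by the authors into 1 map before boundaries were called. The number of animals per replicate is not given in the sources used here. RNA was not measured in the file used here, so the labelled cell type could not be set against its markers, and which of the genes below were active in these cells was not measured. Because there is 1 pooled list, replicate spread is unknown for every value and no test between samples was possible. Intervals are 95% exact intervals (Clopper-Pearson for shares, Poisson for densities) and cover the counting of boundaries or genes only.

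Very long genes are mostly intron, and many of those in the mouse encode proteins of neurons: cell adhesion molecules, axon guidance receptors, ion channels and synaptic scaffolds. Many start transcripts at more than 1 promoter, so that a promoter can lie far inside the gene record. Boundaries of contact domains commonly lie at gene starts and at sites bound by CTCF, a zinc finger protein that stops cohesin as it extrudes chromatin loops. The orientation of the CTCF motif bears on which side of the site the loop forms. Where a boundary lies inside a gene, the start and the end of that gene lie on opposite sides of it.

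The strength of each boundary is the authors' score, whose scale is not given in the sources used here. It served only to rank and divide boundaries within the list. The authors' class Weak covered strengths up to 0.5 and Strong those above, so class and strength are 1 measure. Of the 230 gene records, 6 held 5 or more other protein-coding records wholly inside them. These spanning records (Gm20388, Fgfr2, Gm37240 and 3 nested records over the clustered protocadherin genes) held 36 of the 400 boundaries, 21 of them in Gm20388 and 10 in Fgfr2. A boundary there lies among other genes rather than inside 1 gene, so values are given without the spanning records where this matters: 364 boundaries in 193 of 224 genes. This division was made after the data were seen.

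Sequences are shown for the CTCF core at 8 of the strongest boundaries outside the spanning records that had one within 20 kb, since of the annotations compared below this is the one in which Strong and Weak members differed most. CTCF core sites were exact matches to the core of the CTCF consensus on either strand, searched in the GRCm38.p6 reference. There were 6562 in the genome and 75 within 20 kb of an inside boundary, and all 75 lay in introns of the host gene. Each line gives 30 bases of the strand that carries the core, with the core in capitals.
Plcb1, chr2:135328988-135329017, minus strand: caaatattCCAGTAGATGGCAGgatgagct
Plcb1, chr2:135330389-135330418, minus strand: tcttttgcCCACTAGATGGCAGaagagaat
Cdk14, chr5:4948457-4948486, minus strand: ctcactcaCCAGTAGATGGCAGtcatgaaa
Robo1, chr16:72985358-72985387, minus strand: ttccacctCCACTAGGTGGCAGgtggctcc
Erc2, chr14:27808261-27808290, plus strand: catttcgcCCACTAGATGGCGCtggtgaat
Anks1b, chr10:90690331-90690360, minus strand: gtacattgCCACCAGGTGGCGGtagagcgt
Ptprn2, chr12:116648745-116648774, plus strand: taagtctcCCAGCAGGGGGCACaagcacca
Smyd3, chr1:179477238-179477267, minus strand: tggcatttCCACTAGGTGGCAGtagggtca
Camta1, chr4:150990342-150990371, minus strand: cactgtcgCCAGCAGGTGGCGCtgtctgtg

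Of these 9 sites, all but the one in Camta1 pointed away from their boundary, in the sense that the core, read as printed, ran from the boundary side outwards. Plcb1 (phospholipase C beta, which cleaves a membrane lipid downstream of G proteins) had a boundary of strength 2.18 at chr2:135330001-135335000, and both of its cores lay on the minus strand at 3.50 and 2.10 kb before the middle of the interval. Cdk14 (a cyclin-dependent kinase) had a boundary of strength 1.65 at chr5:4950001-4955000, with the core 4.03 kb before its middle. Robo1, a receptor for the axon guidance cue Slit, had a boundary of strength 1.62 at chr16:72995001-73000000, with the core 12.1 kb before its middle. In Erc2, which encodes a scaffold of the presynaptic active zone, the core lay inside the boundary interval itself, like the second core of Plcb1. It stood 0.775 kb after the interval's middle, and the strength was 1.44. For cores inside an interval, direction was judged from the middle, over a distance shorter than the interval. The boundaries next to the sites in Anks1b, Ptprn2, Smyd3 and Camta1 had strengths of 1.38, 1.26, 1.24 and 1.20. The core varies at its middle: AGATGG stood there in 25.3% of the 75 inside matches and in 17.1% of all 6562, and AGGGGG in 16.0% and 24.3%. AGGTGG took 28.0% and 25.1%, and AGAGGG 30.7% and 33.4%. The inside shares rest on 12 (AGGGGG) to 23 (AGAGGG) sites each. Shares over all core sites of the gene interiors are not given here, so no trait of boundary sites is read from these values.

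A second kind of sequence shown here is a promoter within the gene. Inner transcript starts of the host lay within 20 kb of 15.8% of members, close to the 13.1% of all 5 kb bins of the same gene interiors. For coding transcripts alone the shares were 11.3% and 7.64%. The 250 bases before an inner start, from RefSeq (GRCm38.p6), are shown for the 2 strongest boundaries outside the spanning records that had a RefSeq inner start within 20 kb, with CG dinucleotides in capitals. They differ widely in base composition.
Dlg2 inner promoter, chr7:92062144-92062393, plus strand: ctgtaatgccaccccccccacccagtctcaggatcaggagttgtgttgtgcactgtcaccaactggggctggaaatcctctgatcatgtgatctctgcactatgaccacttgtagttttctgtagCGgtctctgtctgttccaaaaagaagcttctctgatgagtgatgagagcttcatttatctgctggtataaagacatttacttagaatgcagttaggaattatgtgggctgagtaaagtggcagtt
Cacna1c inner promoter, chr6:119108496-119108745, minus strand: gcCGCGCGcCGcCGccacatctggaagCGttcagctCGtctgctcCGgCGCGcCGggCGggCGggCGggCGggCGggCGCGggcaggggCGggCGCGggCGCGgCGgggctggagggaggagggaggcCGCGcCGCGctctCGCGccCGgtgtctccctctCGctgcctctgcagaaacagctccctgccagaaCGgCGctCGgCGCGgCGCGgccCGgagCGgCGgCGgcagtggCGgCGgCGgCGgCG

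Dlg2 encodes a scaffold protein of the postsynaptic density, and this inner start lay 20 kb from the strongest of all inside boundaries. Its 250 bases had a GC content of 45.6% and held 1 CG. Cacna1c encodes the pore subunit of an L-type calcium channel, and its inner start lay 5 kb from a boundary of strength 0.593. Its 250 bases had a GC content of 82.8% and held 48 CGs. Over 32619 promoters of the same table the median was a GC content of 52.4% and 6 CGs, 92.2% held at least 1 CG, and 0.187% held as many as the Cacna1c promoter. RefSeq promoters were found by symbol for 177 of the 230 genes. These matches describe the sequence and do not show that CTCF was bound or that a promoter was active in these cells.

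Inside boundaries were weak compared with the map as a whole. Of the 400, 141 were Strong and 259 Weak, a Strong share of 35.3% (30.6 to 40.2%), beside 50.8% of all boundaries. Their median strength was 0.367 (interquartile range 0.270 to 0.626) against 0.509 over all boundaries. At the upper end, 43 inside boundaries (10.8%) had a strength over 1, against 22.1% of all, and 5 (1.25%) had a strength over 2, against 3.46%. Boundaries with a coding gene start within 20 kb were mostly Strong in this map (64.1% of 3030), and a member can have such a start only from another gene. Among the 5028 boundaries of the map without a coding gene start within 20 kb, 42.8% were Strong and the median was 0.424, which lay between the members and the whole list. The 2955 boundaries over 20 kb from every coding gene record had nearly the members' values, a Strong share of 35.3% and a median of 0.368. Without the spanning records the members' Strong share was 32.7% (27.9 to 37.8%) and their median 0.359. Inside the spanning records alone it was 61.1% (22 of 36), with a median of 0.710.

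**Figure D1:**
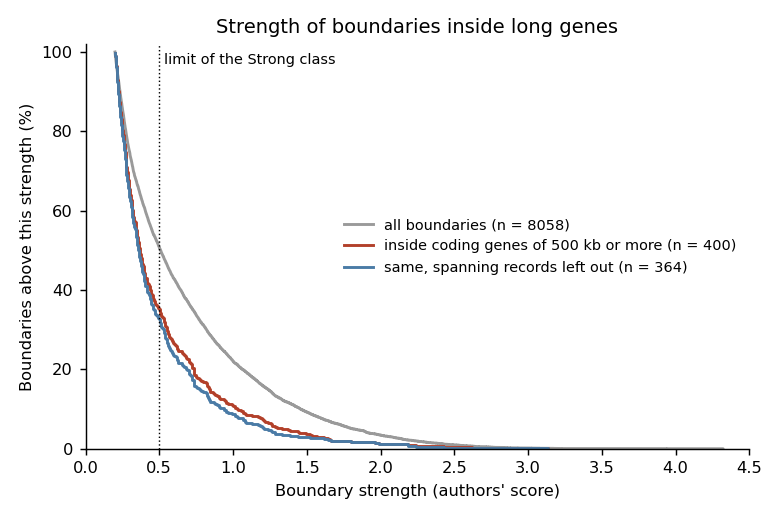
Share of boundaries above each strength (vertical axis, percent) against boundary strength in the authors' score (horizontal axis) for all 8058 boundaries, the 400 inside genes of 500 kb or more and the 364 left without spanning records. The curves of the inside boundaries run below that of all boundaries, and at the Strong limit of 0.5 (dotted line) they pass 35.3% and 32.7% against 50.8%.

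Inside boundaries were also sparser than boundaries in general. The interiors summed to 187.9 Mb and held 2.13 boundaries per Mb (1.93 to 2.35), where the genome held 3.15 per Mb and the regions over 20 kb from coding records 2.65 per Mb (2.55 to 2.75). Interiors of genes of 200 to 500 kb held 1.95 per Mb (1.76 to 2.15). By length of the host gene, Strong boundaries were sparser and Weak ones denser in longer genes from 200 kb up. Strong boundaries per Mb of interior numbered 0.911 in genes of 200 to 500 kb and 0.780 in genes of 500 to 750 kb. They numbered 0.692 in genes of 750 to 1000 kb and 0.550 (0.393 to 0.749) in genes of 1 Mb or more. Spanning records were sought, and left out, only from 500 kb up, so the class of 200 to 500 kb is untrimmed. Weak boundaries per Mb numbered 1.04, 1.17, 1.36 and 1.57 (1.29 to 1.88) in the same classes. The Strong share thus went from 46.7% to 40%, 33.8% and 26.0%, while the total density stayed between 1.95 and 2.12 per Mb. Genes of 100 to 200 kb, with 0.758 Strong and 0.667 Weak boundaries per Mb (53.2% Strong), stood apart from this order in their lower Strong density. With the spanning records kept, the genes of 1 Mb or more had a Strong share of 32.4%, and the density of Strong boundaries then showed no steady order over the classes from 500 kb up (0.780, 0.702 and 0.750). Base composition and CTCF cores changed along the same classes. The median GC content of the 25 kb around the boundaries was 42.1%, 40.6%, 39.5% and 38.8%, and the share of 5 kb interior bins with a CTCF core within 20 kb was 8.55%, 5.84%, 6.12% and 4.17%. Their part in the difference was not tested. Across the 230 records, length and boundaries per Mb had a Spearman correlation of 0.0961, given as a description, since density is a count divided by that length.

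**Figure D2:**
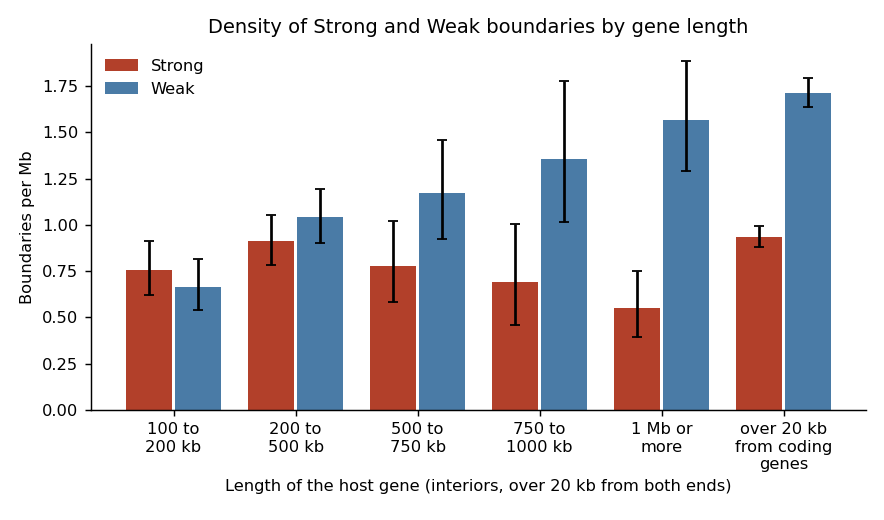
Boundaries per Mb (vertical axis) of the Strong and Weak class in gene interiors by length of the host gene, with spanning records left out from 500 kb up, and in regions over 20 kb from coding genes; error bars are 95% exact Poisson intervals. Strong boundaries went from 0.911 per Mb at 200 to 500 kb to 0.550 at 1 Mb or more, and Weak ones from 1.04 to 1.57.

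Most very long genes were crossed by at least 1 boundary. A boundary lay inside 199 of 230 records (86.5%, 81.4 to 90.7%), and a Strong one inside 105 (45.7%). Of the 230, 92 held 1 boundary, 58 held 2, 29 held 3, 12 held 4, 5 held 5 and 1 held 6, and only Gm20388 and Fgfr2 held more. Genes with more boundaries were longer: the median length was 580 kb for genes with none, 609 kb with 1, 854 kb with 2 and 1093 kb with 3. Neighbouring boundaries inside the same gene were 277.5 kb apart at the median (204 pairs, quartiles 175 and 396 kb), beside 260 kb for all neighbouring pairs of the map. Both boundaries of such a pair must fit in 1 interior, so long gaps are cut off (largest 1015 kb, beside 11520 kb over the map). The 2 medians are therefore not like for like.

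Pde4d, a phosphodiesterase that breaks down cyclic AMP, held the most boundaries of any gene that is not a spanning record. From its 5′ end its 6 boundaries had strengths of 0.477, 1.66, 0.258, 1.26, 0.826 and 0.472, so 3 were Strong, and a low value stood between the first pair of these. Those of 1.66, 0.258 and 1.26 all lay in intron 3, which spans 708 kb. Genes with 5 boundaries were Csmd1, Epha6, Lsamp, Macrod2 and Pcdh15, and they were not alike in strength. In Epha6, an ephrin receptor, the boundary at 93.8% of the gene's length had a strength of 0.955 and another at 72.3% had 0.507, with the other 3 between 0.205 and 0.294. In Lsamp, a GPI-anchored adhesion molecule of neurons, 2 were Strong (0.704 and 0.892), and the gene's end had a boundary of 1.52 within 20 kb. In Csmd1, a large membrane protein with complement-control domains, the 2 Strong ones reached 0.532 and 0.563. In Macrod2, which removes ADP-ribose from proteins, the first boundary from the 5′ end had 0.843 and the other 4 between 0.223 and 0.402. In Pcdh15, a protocadherin of the hair cell tip link, all 5 were Weak, between 0.207 and 0.305.

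The 5 longest records were Gm20388, Fgfr2, Ptprd, Dmd and Cntnap2. Ptprd, a receptor tyrosine phosphatase that organises synapses (2271 kb), held 3 boundaries, of 0.319, 0.783 and 0.260 from its 5′ end. Dmd, which encodes dystrophin (2257 kb, on chromosome X), held 4 Weak boundaries, of 0.274, 0.419, 0.276 and 0.211. Cntnap2, a neurexin-related protein of axons (2245 kb), held 4, of 0.262, 0.354, 0.360 and 0.723, the last of which lay at 86.6% of its length and had a CTCF core within 20 kb.

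**Figure D3:**
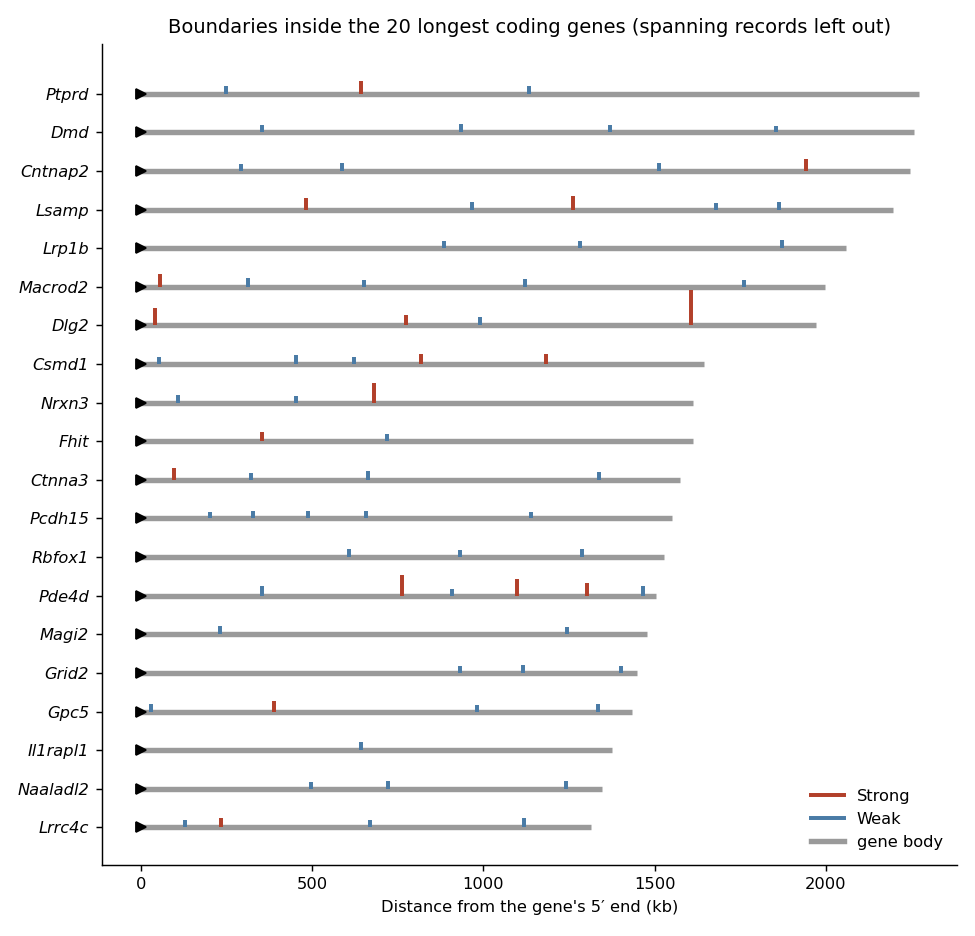
Positions of inside boundaries in the 20 longest genes that are not spanning records, as distance from the 5′ end of the gene record in kb; the grey line is the gene, each tick a boundary, and tick height follows its strength. Dlg2 carries the tallest tick, 1606 kb from its 5′ end, and Pde4d has 6 ticks, while in Pcdh15 and Dmd all ticks are Weak.

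Among the 15 strongest inside boundaries, 4 lay in spanning records (Gm20388 2.62, Gm37240 1.66, and Fgfr2 1.57 and 1.53) and the others inside genes that are not spanning records. The strongest, 3.14, lay in Dlg2 at chr7:92080001-92085000, in intron 16 of the 28-exon longest transcript and at 81.4% of the gene's length. The other 3 boundaries of Dlg2 had strengths of 1.33, 0.541 and 0.367 from the 5′ end. Besides the inner coding start printed above, the start of 4931412I15Rik, a TEC record (the annotation's tag for transcripts that await experimental evidence), lay in the same bin. No exact match to the CTCF core lay within 20 kb.

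Cadps2, which acts in the exocytosis of dense-core vesicles, had a single boundary, of 2.24, at chr6:23485001-23490000 in intron 8, with no exact CTCF core match and no gene start within 20 kb. The single boundary of Plcb1 (2.18) overlapped an exon at 79.3% of the gene's length. In Stpg2 (sperm tail PG-rich repeat containing), a boundary of 1.99 lay 41.8 kb from the 5′ end at chr3:139245001-139250000 in intron 6.

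In Astn2, a membrane protein of migrating neurons, a boundary of 1.96 lay at chr4:65600001-65605000 in intron 16, in the same bin as the start of Trim32, a ubiquitin ligase gene nested in that gene. Its other 2 boundaries had 0.304 and 0.258. Nav3, a neuron navigator protein that binds microtubules, had a boundary of 1.80 at chr10:109885001-109890000, 15 kb from an inner start of a transcript not annotated as coding. Pde4d followed with 1.66, Cdk14 with 1.65 and Robo1 with 1.62. The Robo1 boundary overlapped an exon at 93.4% of the gene's length, and an inner start, also of a transcript not annotated as coding, lay 10 kb away. Nrxn3, a presynaptic adhesion molecule, had 1.52 at chr12:89400001-89405000 in intron 7, at 42.2% of its length. Of these 10 boundaries outside the spanning records, 3 had a CTCF core within 20 kb (Plcb1, Cdk14 and Robo1), and 6 lay at 73.4 to 93.4% of the gene's length from its 5′ end.

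Of the annotations compared, a CTCF core within 20 kb was the one whose share differed most between the members and the bins of the same genes. It stood at 64 of the 400 boundaries (16.0%, 12.5 to 19.97%), beside 5.86% of all 5 kb bins of the same interiors and 21.9% of all boundaries of the map. Among Strong members it stood at 41 of 141 (29.1%, 21.7 to 37.3%), and among Weak ones at 23 of 259 (8.88%, 5.71 to 13.03%), so these intervals did not overlap. Strong boundaries of the whole map without a coding start within 20 kb had the same share, 29.1%, and Weak ones 9.80%. The median strength was 0.588 with a core and 0.345 without. The rotated core, a control sequence of the same letters in another order, stood at 10 of the 400 (2.5%), beside 2.10% of the interior bins and 2.84% of all boundaries. The control has 1430 sites in the genome against 6562 for the core, so its share is to be compared with that of the bins and not with the 16.0% of the core. Of the 75 core sites, 49 pointed away from the boundary and 26 toward it. These counts include 13 sites in the boundary's own bin, whose direction was judged from the middle of that bin. Sites at Strong members pointed away in 34 of 48 cases (70.8%) and those at Weak members in 15 of 27 (55.6%). Relative to the transcription of the host gene, 41 sites lay on the same strand and 34 on the opposite one.

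An inner start of the host gene lay within 20 kb of 63 boundaries (15.8%, 12.3 to 19.7%), beside 13.1% of the interior bins. Inner starts of coding transcripts lay near 45 (11.3%, 8.33 to 14.8%), beside 7.64% of bins, with 10.6% of Strong and 11.6% of Weak members. Starts of other genes lay near 97 (24.3%), beside 23.3% of bins. Most of these were not coding: 29 boundaries had the start of a TEC record, 23 of a processed pseudogene, 22 of a coding gene, and 11 each of an antisense RNA, a lincRNA or a miRNA. Of the 22 with another coding gene (5.50%, beside 2.79% of bins), 18 lay in spanning records. The other 4 were those at Trim32 in Astn2, at Uts2 in Camta1, at Lrrtm3 in Ctnna3 and at Schip1 in Iqschfp. They are named here although the rule for naming genes did not take all of them. The Iqschfp record covers nearly all of Schip1, itself a long gene record. Its boundary of 1.04 thus counts as inside Iqschfp and also as at the start of Schip1.

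Exons of the host gene overlapped 43 boundaries (10.8%), beside 10.8% of bins, and among the Strong members 20 of 141 (14.2%, 8.88 to 21.1%). Introns of 100 kb or more held 272 boundaries (68.0%), beside 64.6% of bins. The share was 58.2% (49.6 to 66.4%) for Strong members and 73.4% (67.5 to 78.6%) for Weak ones. The 36 boundaries in spanning records all lay in such introns, and without them the share was 50.4% (41.1 to 59.7%) for Strong and 71.8% (65.8 to 77.4%) for Weak members, beside 62.8% of bins. The longest intron of the host held 170 (42.5%), beside 38.0% of bins, and without spanning records 134 (36.8%), beside 34.8%. The first intron held 96 (24.0%), beside 21.6%. For 198 of the 400 (49.5%), none of 4 features (exact CTCF core, inner start, start of another gene, exon) was present, beside 58.3% of bins. Such members included 51 Strong ones and had a median strength of 0.314. With 1 mismatch allowed, a core stood at 65.3% of members and 76.3% of all boundaries. An absent exact core thus does not exclude a looser match.

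**Figure D4:**
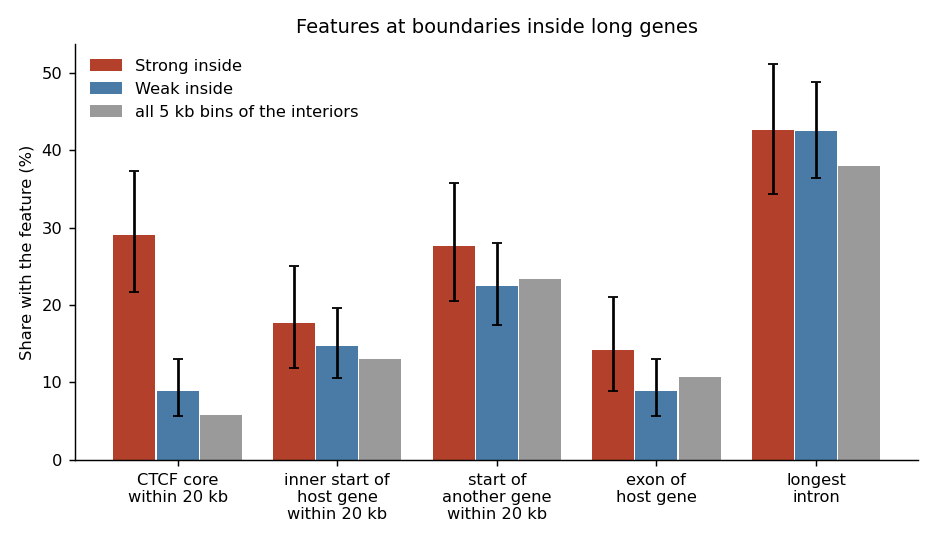
Share (percent) of Strong inside boundaries (n = 141), Weak inside boundaries (n = 259) and all 5 kb bins of the same gene interiors that had each of 5 annotations; error bars are 95% Clopper-Pearson intervals. The CTCF core separates the bars most, with 29.1%, 8.88% and 5.86%, while for each of the other 4 annotations plotted the share of the bins lies within both intervals.

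Along the gene, boundaries were somewhat more frequent on the 5′ side of the interior's midpoint. There 221 of the 400 lay (55.3%, 50.2 to 60.2%), and 179 on the 3′ side, whose length is equal. From the 5′ end, 5 equal parts of the interior held 74, 91, 89, 79 and 67, so the parts next to the first held most and the last the fewest. The Strong share was 41.9%, 37.4%, 24.7%, 35.4% and 38.8% in the same order, lowest in the middle part, and the median strength was 0.401, 0.370, 0.346, 0.359 and 0.374. Without the spanning records the Strong share was again lowest in the middle part (22.2%), and the 5′ side held 204 of 364 (56.04%). Of the Strong members 83 lay on the 5′ side and 58 on the 3′ side, and of the Weak ones 138 and 121.

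**Figure D5:**
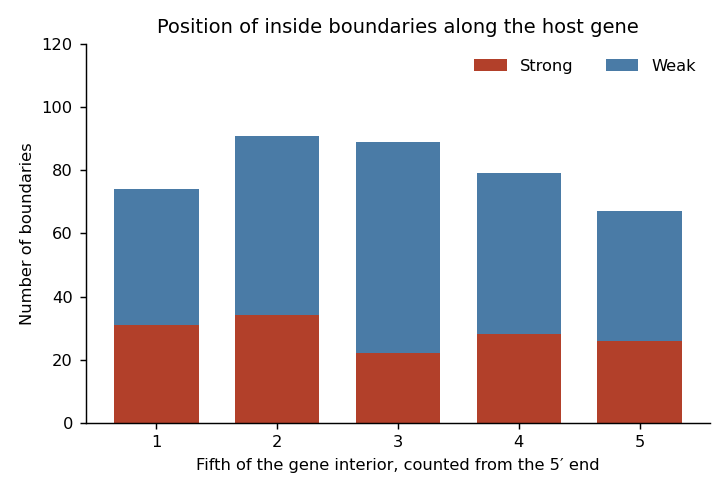
Number of inside boundaries (vertical axis), split into Strong and Weak, by position in the host gene's interior, cut into 5 equal parts and counted from its 5′ end (horizontal axis). The bars hold 74, 91, 89, 79 and 67 boundaries, of which 31, 34, 22, 28 and 26 were Strong.

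The ends of the same genes, which the rule leaves out, had boundaries at shares close to those of all coding genes. A boundary lay within 20 kb of the start of 49 of 230 long genes (21.3%, 16.2 to 27.2%), beside 21.2% of all coding genes and 20.2% of those of 200 to 500 kb, and within 20 kb of the end of 50 (21.7%, 16.6 to 27.6%), beside 22.2% and 24.7%. Of these, 20 of the 49 at starts were Strong (median strength 0.476) and 33 of the 50 at ends (median 0.618). For 131 genes a boundary lay inside and none at either end. In 68 genes with a boundary inside and at an end, the strongest inside one exceeded the strongest at an end in 34 and fell short of it in 34. The interior is far longer than the windows at the ends and can hold more boundaries, which favours the inside maximum. The even split therefore does not compare the strength of single boundaries. Robo2 (520 kb), the other Robo receptor among the long genes, had 1.70 at its start and 0.488 inside, the reverse of Robo1, whose ends had none.

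By gene function, adhesion and synapse organisation was the largest of 10 lists. The lists held 156 of the 230 genes, and each value below is to be read beside the 35.3% Strong share and 0.367 median of all members. Fgfr2 was the only spanning record in the lists. For lists without it the nearer values are 32.7% and 0.359, those of members outside spanning records. Of 48 adhesion genes, 43 held 92 boundaries, of which 24 were Strong (26.1%, 17.5 to 36.3%), with a median of 0.341. Astn2 (1.96) and Nrxn3 (1.52) led the list. The neurexin Nrxn3 and the teneurins Tenm2, Tenm3 and Tenm4, adhesion receptors across synapses, each had 1 Strong inside boundary, of 1.52, 0.734, 0.563 and 0.907. On chromosome X, Tenm1 had a highest strength of 0.285. The long cadherin genes Cdh12, Cdh13 and Cdh18 had only Weak ones, between 0.204 and 0.400.

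Axon guidance and growth factor genes (16 genes, 15 with a boundary) held 36 boundaries, 14 of them Strong (38.9%), with a median of 0.387. However, 10 of the 36 lay in the Fgfr2 record, 6 of them Strong, so this spanning record raises the list's Strong share. Besides Fgfr2, Robo1 (1.62) and Unc5d, a netrin receptor (1.01), led the list. Scaffold and cytoskeleton genes (22 genes, 19 with a boundary) held 43, of which 19 were Strong (44.2%), with a median of 0.393, led by Dlg2, Nav3 and Erc2. Signalling genes for cyclic nucleotides, kinases and lipids all had a boundary inside (10 of 10), 24 in total and 11 Strong (45.8%, 25.6 to 67.2%), with a median of 0.475. Plcb1 and Pde4d were among the leading genes. In ion channel genes (12 genes, 9 with a boundary), 7 of 13 were Strong (53.8%, 25.1 to 80.8%), with a median of 0.539. The leading ones were Ryr3, an intracellular calcium release channel (1.08), Kcnip4, a potassium channel subunit (0.834), and Kcnma1, the large-conductance calcium-activated potassium channel (0.798).

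The 7 glutamate and GABA receptor genes stood at the low end. All had a boundary inside, 13 in total, but 1 was Strong (7.69%, 0.195 to 36.0%) and the median was 0.273. Grm8, a metabotropic glutamate receptor, had 0.515, Grid1 0.458 and Gabrg3, a GABA receptor subunit, 0.431. RNA-binding genes (4 genes, 3 with a boundary) held 6, all Weak, which allows a Strong share of up to 45.9%, and the highest were in Celf2 (0.416), the splicing factor Rbfox1 (0.331) and Adarb2 (0.218). Of the 15 transcription and chromatin genes, 11 held 19 boundaries, 9 Strong (47.4%, 24.4 to 71.1%), with a median of 0.367, led by Camta1 (1.20), the deacetylase gene Hdac9 (0.719) and Sox5 (0.627). Glycan and matrix genes (12 genes, 10 with a boundary) held 21, of which 6 were Strong (28.6%), with Adamtsl1 (1.01) and Galnt13 (0.739) among the leading genes. Large genes that lie at known common fragile sites, where replication stress breaks chromosomes, overlap the other lists. Of 22 such genes, 21 held 52 boundaries, 12 of them Strong (23.1%, 12.5 to 36.8%), with a median of 0.345, with Macrod2 (0.843) and Immp2l (0.830) among the leading genes. With these numbers of boundaries the lists' intervals overlap widely.

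Of the 230 genes, 31 had no boundary inside. The longest were Rbms3, an RNA-binding protein gene (1057 kb), Sdk1, a synaptic adhesion molecule (974 kb), Sntg1, a syntrophin (938 kb), Npas3, a transcription factor (823 kb), and Cacna2d3, a calcium channel subunit (817 kb). Rbms3 was the only gene of 1 Mb or more without one. A boundary lay within 20 kb of the start of Rbms3 (0.495) and of Sdk1 (0.526), and at neither end of the other 3.

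On chromosome X, 23 boundaries lay inside long genes, of which 4 were Strong (17.4%, 4.95 to 38.8%), with a median of 0.280. The share was 36.3% for members on autosomes and 31.3% for all 451 boundaries of chromosome X. Samples were of mixed sex, so the map of this chromosome joins cells with 1 and with 2 copies.

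Just above 500 kb, Edil3 (501.8 kb) and Dock1 (503.0 kb) held no boundary and Car10 (503.7 kb) 1 of 0.2003. Just below, Pde1c (499.3 kb), Dnm3 (495.6 kb) and Cacna1e (493.8 kb) held 1 each, of 1.10, 0.231 and 1.45. At the 20 kb margin, the nearest members lay 20.8 kb (Grm5, 0.265), 21.0 kb (Alk, 0.826) and 24.3 kb (Thsd7b, 0.351) from an end. The nearest that were left out lay at 19.1 kb (Kirrel3, 0.779), 18.7 kb (Sgcd, 0.324) and 18.3 kb (Tenm2, 1.24).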

How the data were processed

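The authors merged the contact lists of the 2 replicates on GRCm38, made 1 contact matrix from them and called boundaries on it, per the series design text. The deposited list gives each 5 kb boundary a class and a score, the authors' boundary strength. The mapper was not given in the sources used here, nor was the boundary caller or its window, and contact depth is unknown. Contact lists, matrices, insulation and compartment tracks were not used here.

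From the list, members were found by position against GENCODE mouse release 21, and sequence was read from the GRCm38.p6 reference. A boundary inside several long records was counted once, with the longest as host. Features lay within 20 kb when their 5 kb bins were at most 20 kb apart. An inner start was a transcript start of the host over 20 kb from the 5′ end of its record. Introns and exons are those of the host's longest transcript and all its transcripts, respectively. Background shares were taken over the 37303 bins of the interiors. The code was tested on simulated boundaries and returned all 5 planted quantities exactly. Python 3.11.15, numpy 2.4.6, pandas 2.3.3, scipy 1.17.1 and matplotlib 3.10.9 were used.

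Members and gene lists were chosen with earlier results of these data known. Named genes are the 15 strongest members, the 5 genes with most members, the 5 longest genes, the 5 longest without a member, up to 3 leading genes per list and those nearest the rule's limits. Some genes that this rule takes are not reported here. Alternatives were other margins, gene lengths, gene bodies, windows and motif rules, autosomes only, Strong boundaries only and leaving out spanning records.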

Additional observations from a re-analysis of the deposited data

How the results depend on the processing

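Of 88 alternatives tried for 11 results (76 listed with the design and 12 chosen after seeing the data), 62 kept the value within its interval, or a count within 1.5 times, and 26 moved it. With genes of 1 Mb or more, the count was 188 boundaries, in 98.3% of genes, with a median strength of 0.344, an inner start at 12.2% and an exon at 4.79%. With genes of 300 kb or more, the count was 625, in 70.2% of genes, with an exon at 16.6%. With Strong boundaries only, it was 141, in 45.7% of genes, at 0.751 per Mb, with a CTCF core at 29.1% and a boundary at 8.70% of gene starts. With a window of 10 kb, the shares were 10.3% for inner starts, 16.3% for starts of other genes, 12.3% for CTCF cores and 12.2% for gene starts with a boundary, and with 50 kb they were 28.3%, 47.3%, 23.8% and 41.7%. A core with 1 mismatch stood at 65.3% of members (76.3% of all boundaries), and the rotated control at 2.5%. The share of interior bins with such a looser core is not given here. Basic transcripts alone put an inner start at 8.75% and coding transcripts alone at 11.3%. Without spanning records, starts of other genes stood at 19.8%. Margins of 50 kb, transcript bodies and autosomes alone moved none of the results they were run on. No paired analysis was possible because the deposited boundary list comes from 1 pooled map, so no replicate could be left out either. Contact depth limits which weak boundaries a caller can find, and it is not known here. The strength has no stated scale, and a record's length rests on the annotation release.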
